A study of Mus musculus with 6 samples.

Results

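Transcripts of 7 genes of threonine breakdown and one-carbon metabolism, Tdh, Gcat, Gldc, Shmt1, Shmt2, Mthfd1 and Mthfd2, were followed in E14tg2a, a line of mouse embryonic stem cells. The genes were taken by symbol from a table of 12331 genes, and all 7 were present and were kept in the test of 6327 genes with at least 1 RPKM (reads per kilobase of gene length, relative to the total alignments of the library) in at least 3 of 6 libraries. In 3 libraries the cDNA was cut and tagged by hyperactive Tn5 transposase (tagmentation, replicate numbers 1 to 3), and in the other 3 it was sheared by sonication and ligated to adaptors (numbers 1 to 3). All 6 libraries came from cells grown with LIF, the cytokine that keeps them undifferentiated, and each was made from cDNA of 10 pg total RNA, near the content of 1 cell, amplified with 20 PCR cycles. The study compared the 2 ways of making a library. Libraries were described as technical replicates, so p-values measure the spread between libraries and not between cultures. In RNA from many cells, fewer cells expressing a gene and less RNA of it per cell cannot be told apart.

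Mouse embryonic stem cells are known for rapid threonine breakdown. In mitochondria, threonine dehydrogenase (Tdh) oxidizes threonine and glycine C-acetyltransferase (Gcat) splits the product into glycine and acetyl-CoA. Glycine decarboxylase (Gldc) is the P protein of the glycine cleavage system, which as a whole passes a carbon of glycine to tetrahydrofolate. Serine hydroxymethyltransferases take the same kind of carbon from serine, in mitochondria (Shmt2) or in the cytosol (Shmt1). Mthfd2 oxidizes the carbon-carrying folate in mitochondria, and the trifunctional enzyme Mthfd1 serves the cytosolic folate pool that feeds purine and thymidylate synthesis.

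Libraries had 18852822 to 34681566 alignments, and 5426 to 6807 genes reached 1 RPKM. Of 9 embryonic stem cell markers, 7 were at 1 RPKM or more in all 6 libraries. Nanog was at 0 in both libraries of number 3, and Klf4 was below 1 RPKM in both libraries of number 1. Feeder fibroblast markers summed to 0.126 to 9.55 RPKM after tagmentation and 0.402 to 12.1 RPKM after sonication over the 4 of 7 in the table, with Thy1 as the only one to reach 1 RPKM. Extraembryonic endoderm markers summed to 0 to 9.29 RPKM after tagmentation and 0 to 5.54 RPKM after sonication over the 2 of 5 in the table, all but a trace from Dab2 in number 1. Markers of neuroectoderm and trophoblast summed to at most 2.61 RPKM in any library.

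All 7 genes were at 1 RPKM or more in every library, as were 57.6% of the 6327 tested genes. Reads could be recovered from the steps of the values for 6 of the 7 genes, all but Gcat, and numbered 177 to 15124 per gene and library. RPKM is per length, and on that basis levels were set side by side between genes. The part that priming at the poly(A) tail, amplification and the length used have in their order was not tested. Mean levels over the 6 libraries were 135 ± 38.1 RPKM for Mthfd2, 125 ± 41.0 RPKM for Tdh and 94.2 ± 41.0 RPKM for Shmt2 (SD, n = 6). They were 57.4 ± 37.7 RPKM for Gldc, 49.1 ± 23.7 RPKM for Mthfd1, 33.7 ± 30.4 RPKM for Shmt1 and 29.4 ± 11.1 RPKM for Gcat. Libraries of the same number deviated together, so the 6 are 3 pairs rather than independent points. Each difference between neighbours in this order was smaller than the SD of the higher gene. Mthfd2 stood above Tdh in 3 of 6 libraries, Tdh above Shmt2 in 3, Gldc above Mthfd1 in 3 and Shmt1 above Gcat in 4. Shmt2 was above Gldc in all 6, as Mthfd1 was above Shmt1. The upper 3 genes, Mthfd2, Tdh and Shmt2, were each above Gldc, Mthfd1, Shmt1 and Gcat in all 6 libraries. In tagmentation library 1, however, Shmt2 (41.15 RPKM) was nearly level with Gldc (41.10 RPKM) and Mthfd1 (39.90 RPKM).

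**Figure D1:**
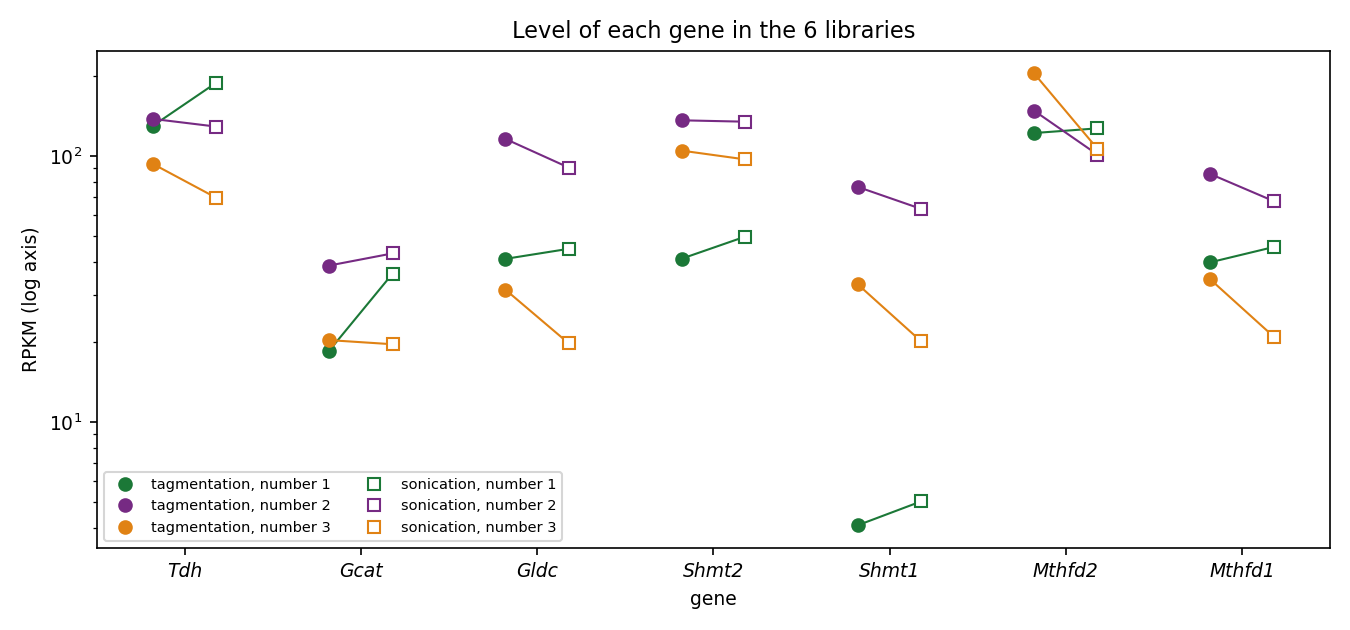
RPKM (log axis) of each gene in the 6 libraries, with filled circles for tagmentation, open squares for sonication, and a line joining libraries of the same replicate number. Shmt1 has the widest spread between numbers, with 4.08 RPKM in the lowest library (tagmentation, number 1) and 76.7 RPKM in the highest (tagmentation, number 2).

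Tdh, the first enzyme of threonine breakdown, had 130, 138 and 93.7 RPKM in tagmentation libraries 1 to 3, against 189, 129 and 69.8 RPKM in sonication libraries 1 to 3. It was thus lowest in number 3 with either method, and the methods overlapped. Gcat, the second enzyme, had 18.5, 38.8 and 20.3 RPKM after tagmentation, against 36.2, 43.1 and 19.6 RPKM after sonication. Its level was highest in number 2 with either method. Tdh exceeded Gcat in all 6 libraries, by 7.04, 3.57 and 4.61 times after tagmentation and by 5.24, 3.00 and 3.56 times after sonication. The smallest of these ratios belonged to number 2 with both methods. The gene model recovered for Tdh had 1881 bases, as has its longest coding transcript in GENCODE. For Gldc the lengths were 3756 and 3767 bases, and for Gcat no reads or length were recovered.

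Gldc, which starts glycine cleavage, had 41.1, 116 and 31.5 RPKM in tagmentation libraries 1 to 3, against 44.9, 90.7 and 19.7 RPKM in sonication libraries 1 to 3. Number 2 stood highest and number 3 lowest with both methods. Gldc was above Gcat in all libraries, from 1.55 to 3.00 times after tagmentation and from 1.01 to 2.11 times after sonication.

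In the pairs Shmt2 and Shmt1 and Mthfd2 and Mthfd1, transcripts of the mitochondrial enzyme exceeded those of the cytosolic one in every library. Shmt2 had 41.2, 137 and 105 RPKM in tagmentation libraries 1 to 3, against 49.8, 135 and 97.4 RPKM in sonication libraries 1 to 3. Shmt1 had 4.08, 76.7 and 33.0 RPKM after tagmentation, against 5.02, 63.4 and 20.1 RPKM after sonication. Number 1 was the lowest and number 2 the highest for both genes with both methods. Shmt2 was above Shmt1 by 10.1, 1.78 and 3.19 times after tagmentation and by 9.93, 2.13 and 4.85 times after sonication. The ratio was thus near 10 in number 1 and near 2 in number 2 with either method.

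Mthfd2 had 122, 149 and 205 RPKM in tagmentation libraries 1 to 3, against 127, 102 and 107 RPKM in sonication libraries 1 to 3. Mthfd1 had 39.9, 85.8 and 34.4 RPKM after tagmentation, against 45.5, 67.8 and 20.9 RPKM after sonication. Mthfd1 was highest in number 2 with both methods, whereas the order of the 3 numbers for Mthfd2 differed between methods. The order of mitochondrial above cytosolic did not extend to Mthfd1l, the mitochondrial formate-tetrahydrofolate ligase, which was below Mthfd1 in 5 of 6 libraries, with 42.1, 13.0 and 30.9 RPKM after tagmentation, against 40.8, 9.45 and 14.9 RPKM after sonication. Mthfd2l, a mitochondrial relative of Mthfd2, was at 0 to 1.30 RPKM. Mthfd2 was above Mthfd1 by 3.07, 1.73 and 5.97 times after tagmentation and by 2.80, 1.50 and 5.10 times after sonication. The mean log2 ratio over the 6 libraries, on the log2(RPKM + 1) scale, was 1.98 ± 0.97 for Shmt2 over Shmt1, 1.54 ± 0.79 for Mthfd2 over Mthfd1 and 2.07 ± 0.44 for Tdh over Gcat (SD, n = 6). Same-number libraries deviated together, so these 6 values are 3 pairs rather than independent points. Recovered gene models were 2280 and 2065 bases long for Shmt2 and Shmt1, and 2070 and 3324 bases long for Mthfd2 and Mthfd1. The longest coding transcripts in GENCODE had 2289 and 2858 bases for Shmt2 and Shmt1, and 2085 and 3241 bases for Mthfd2 and Mthfd1. RPKM scales with the length used, and the part of the 2065 bases used for Shmt1 in its ratio was not tested. The cDNA was primed at the poly(A) tail, and the part that coverage along a transcript has in these ratios was not tested.

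**Figure D2:**
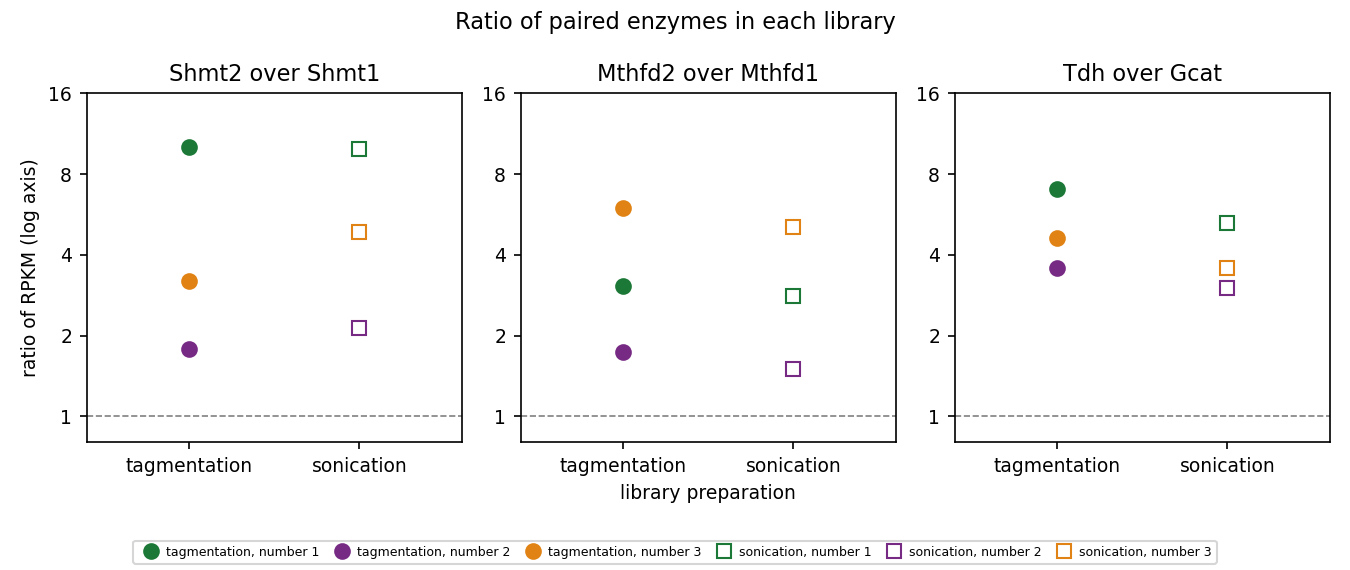
Ratio of RPKM (log axis) between paired enzymes in each library, with filled circles for tagmentation, open squares for sonication, colours for the replicate number and a dashed line at 1. All 18 points lie above 1, and in each panel the numbers keep the same order with both methods.

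The sequences before the starts of Shmt2, Shmt1, Mthfd2 and Mthfd1 are shown because in both pairs the mitochondrial member stood above the cytosolic one in all libraries. RefSeq windows (GRCm38.p6) were held for 6 of the 7 genes, with none for Tdh. Each line gives the 250 bases before the start, 5′ to 3′ on the gene's strand. Capitals mark the GC box GGGCGG, a binding motif of Sp1-type factors, and the CCAAT box CCAAT, a binding motif of NF-Y, each searched on both strands. The 2 motifs do not overlap each other in these windows. The windows lie at chr10:127522445-127522694 (minus strand) for Shmt2, chr11:60811266-60811515 (minus strand) for Shmt1, chr6:83317605-83317854 (minus strand) for Mthfd2 and chr12:76254982-76255231 (plus strand) for Mthfd1.
Shmt2: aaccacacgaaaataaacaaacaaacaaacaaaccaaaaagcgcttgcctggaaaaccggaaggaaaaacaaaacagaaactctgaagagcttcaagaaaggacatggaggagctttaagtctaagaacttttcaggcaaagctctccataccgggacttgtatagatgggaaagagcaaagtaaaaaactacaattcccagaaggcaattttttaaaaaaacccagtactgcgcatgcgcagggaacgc
Shmt1: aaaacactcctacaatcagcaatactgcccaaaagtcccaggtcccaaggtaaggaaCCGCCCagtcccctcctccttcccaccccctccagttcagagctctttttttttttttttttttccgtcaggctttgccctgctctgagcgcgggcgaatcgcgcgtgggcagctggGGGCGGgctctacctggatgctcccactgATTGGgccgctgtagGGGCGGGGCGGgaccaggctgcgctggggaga
Mthfd2: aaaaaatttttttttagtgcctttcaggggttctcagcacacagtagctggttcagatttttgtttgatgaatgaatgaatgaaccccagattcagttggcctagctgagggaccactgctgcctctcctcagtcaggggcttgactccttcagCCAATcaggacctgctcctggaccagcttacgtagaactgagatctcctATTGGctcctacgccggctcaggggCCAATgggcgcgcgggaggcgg
Mthfd1: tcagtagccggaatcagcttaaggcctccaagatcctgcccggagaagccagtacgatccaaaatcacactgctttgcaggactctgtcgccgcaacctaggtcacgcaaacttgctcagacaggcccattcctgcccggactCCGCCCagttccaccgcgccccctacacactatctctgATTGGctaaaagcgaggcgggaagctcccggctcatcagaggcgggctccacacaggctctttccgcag
The windows of Shmt1 and Mthfd1 held GC boxes, 4 in Shmt1, of which 2 overlap by 1 base, and 1 in Mthfd1, and each held 1 CCAAT box. Those of Shmt2 and Mthfd2 held no GC box, and Mthfd2 had 3 CCAAT boxes and Shmt2 none. The windows of 2 other genes of mitochondrial enzymes, not printed, held GC boxes: Gcat had 1 and no CCAAT box, and Gldc had 1 and 1 CCAAT box. Of 32851 windows of the same length, 32.7% held a GC box and 33.8% a CCAAT box. GC content was 40.8% for Shmt2 and 60.0% for Shmt1, 52.4% for Mthfd2 and 59.2% for Mthfd1, with a median of 52.4% over all windows. The motifs were chosen after the sequences were read, and the RNA levels do not measure which of them are used.

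None of the 7 genes passed the test between tagmentation and sonication. With the method as the only term, limma (Benjamini-Hochberg adjustment) called 0 of 6327 genes (0%), and 18 had an unadjusted p under 0.05. Mthfd2 had the largest log2 fold change of tagmentation over sonication, 0.47 (SE 0.42, adjusted p 1.00), with means of 159 ± 42.4 RPKM after tagmentation and 112 ± 13.7 RPKM after sonication (SD, n = 3). Gcat had the lowest, -0.34 (SE 0.70, adjusted p 1.00), with 25.9 ± 11.2 RPKM after tagmentation and 33.0 ± 12.1 RPKM after sonication. Those of Tdh (-0.01, SE 0.49) and Shmt2 (-0.05, SE 0.61) were near 0. Gldc had 0.29 (SE 0.74), Mthfd1 0.28 (SE 0.67) and Shmt1 0.24 (SE 1.21). The median of the 7 was 0.24, beside 0.03 for all tested genes. Intervals were wide: the 95% interval ran from -1.10 to 1.08 for Tdh and from -2.45 to 2.92 for Shmt1. These tests therefore do not show that the methods gave equal levels. The libraries of the methods overlapped for all 7 genes, and 2.40% of tested genes had no overlap.

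When replicate number was added as a block, because same-number libraries deviated together, limma called 208 genes (3.29%) but again 0 of the 7. The interval of Mthfd2 was then -0.12 to 1.07 (adjusted p 0.443), and that of Tdh -0.60 to 0.58 (adjusted p 0.993). With the block, limma's 212 degrees of freedom came mainly from other genes of similar level, so these intervals hold little information on the 3 pairs of the gene itself. Without number 1, Mthfd2 was called with a log2 fold change of 0.74 (adjusted p 0.0243), while the count over all genes was 1051. Adjusted p values for Mthfd2 in its other alternatives were 0.0718 or more.

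Within replicate numbers, the difference between methods went one way for nearly all of these genes. In number 1 all 7 were lower after tagmentation, by log2 differences of -0.06 (Mthfd2) to -0.93 (Gcat). In number 2 only Gcat was lower (-0.15), and Mthfd2 had the highest value, 0.55. In number 3 all 7 were higher after tagmentation, by 0.05 (Gcat) to 0.94 (Mthfd2). The medians of the 7 were -0.24, 0.27 and 0.65 in numbers 1 to 3, beside -0.07, 0.08 and 0.20 for all tested genes, of which 56.0%, 40.8% and 34.2% were below 0. With 1 pair of libraries in each number, these differences have no replicate check.

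The direction within a number depended on how the libraries were scaled. After median-ratio scaling, with size factors of 0.897, 1.27 and 1.04 for tagmentation libraries 1 to 3 and 1.06, 1.14 and 0.764 for sonication libraries 1 to 3, 4, 3 and 3 of the 7 genes were lower after tagmentation in numbers 1 to 3. Gcat was then lower in 3 of 3 numbers (-0.69, -0.30 and -0.38), as were Shmt2 (-0.03, -0.14 and -0.33) and Tdh (-0.29, -0.06 and -0.02). Mthfd2 was higher in 3 of 3 (0.19, 0.39 and 0.50), as were Gldc (0.12, 0.20 and 0.22) and Mthfd1 (0.05, 0.18 and 0.27). The medians of all tested genes were then 0.03, -0.03 and -0.11 in numbers 1 to 3. The shares of tested genes below 0, or with 1 direction in 3 of 3 numbers, were not computed after this scaling. None of the 7 was called after it, with or without the block. The lowest adjusted p values with the block were 0.0718 for Mthfd2 and 0.0802 for Gcat. GC content of the longest coding transcript in GENCODE was highest for Shmt2 (57.4%) and Gcat (56.7%), 2 of the 3 genes with a fold change below 0. It was lowest for Shmt1 (49.2%) and Mthfd2 (49.6%), and 52.6% for Mthfd1, 53.3% for Tdh and 53.7% for Gldc. The part of GC content in the differences was not tested.

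**Figure D3:**
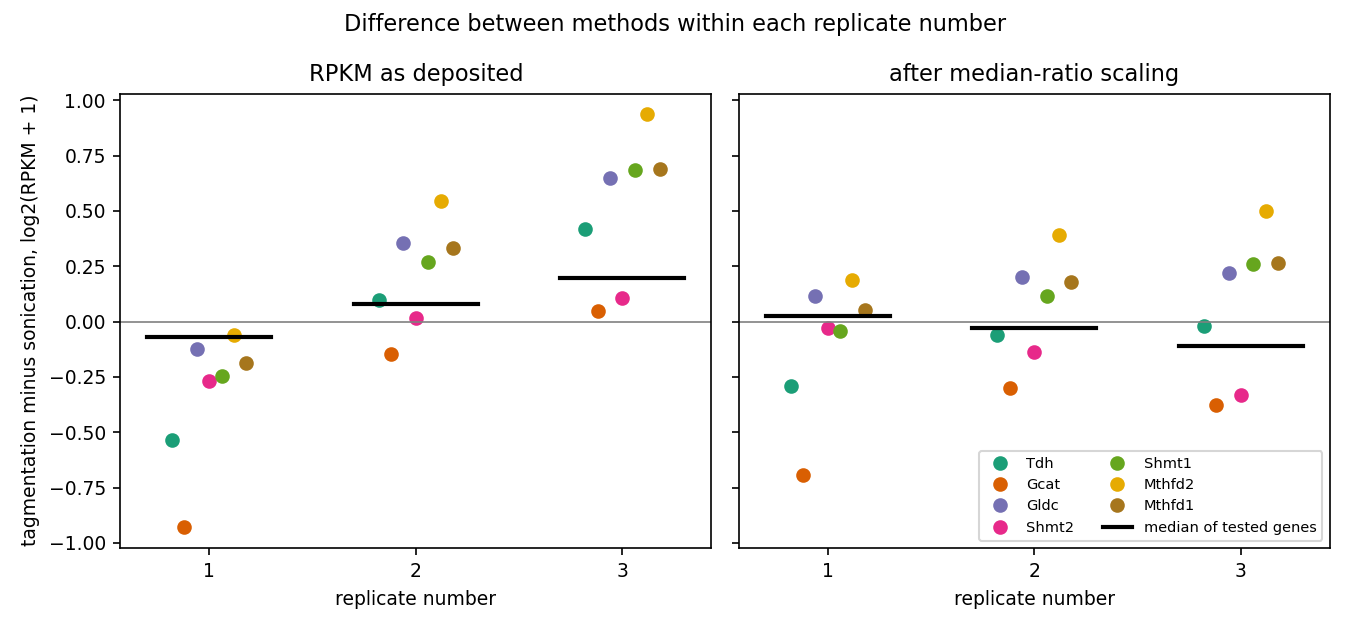
Tagmentation minus sonication of log2(RPKM + 1) for each gene within replicate numbers 1 to 3, as deposited (left) and after median-ratio scaling (right), with black bars for the median of the 6327 tested genes. As deposited, all 7 points lie below 0 in number 1 and above 0 in number 3, whereas after scaling 4, 3 and 3 points lie below 0 in numbers 1 to 3.

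The level of 6 of the 7 genes differed between replicate numbers, Mthfd2 being the exception (limma's moderated F test with method as a term, adjusted p 0.735). Of all tested genes 88.1% were called in this test, so 6 of 7 is near the background. The error of this test is the difference between methods within a number, taken mainly from other genes of similar level. Its p-values therefore do not measure the spread between repeats of a number, since each number had a single library per method. Shmt1 had the widest range between numbers, 3.68 on the log2(RPKM + 1) scale or 12.8-fold (adjusted p 7.09e-19). It was followed by Gldc with 2.00 (adjusted p 9.18e-07), Shmt2 with 1.56 (adjusted p 1.15e-04) and Mthfd1 with 1.47 (adjusted p 4.80e-04). Gcat had 1.00 (adjusted p 0.0249) and Tdh 0.95 (adjusted p 0.0321). The range of Mthfd2 was 0.27, or 1.20-fold. Ranges were taken after averaging the methods, and from number 1 to number 3 Mthfd2 rose after tagmentation and fell after sonication. It had 122, 149 and 205 RPKM in tagmentation libraries 1 to 3, against 127, 102 and 107 RPKM in sonication libraries 1 to 3. Its small range therefore does not show a steady level within each method. The median range of all tested genes was 2.38, and 1.55% of them had a smaller range than Mthfd2, 14.0% than Tdh and 78.5% than Shmt1. As to level, 93.0% of tested genes had a lower mean RPKM than Mthfd2, 92.5% than Tdh and 72.6% than Shmt1.

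Shmt1 had 177 reads in tagmentation library 1, the fewest of any recovered value, which gave an exact Poisson 95% interval of 3.50 to 4.73 RPKM. In tagmentation library 2 it had 5482 reads and an interval of 74.7 to 78.8 RPKM. Without molecular identifiers, PCR copies of a molecule are counted as separate reads, and these intervals cover counting error only. The calls of Tdh and Gcat between numbers did not hold with a pseudocount of 0.1, with no filter, with no term for the method or without sonication replicate 3, and that of Tdh also without tagmentation replicate 3. Without tagmentation replicate 2 or without sonication replicate 2, Shmt1 was the only one of the 7 still called, beside 68.6% and 70.6% of all tested genes. After median-ratio scaling all 7 were called, beside 92.4% of all tested genes.

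Number 2 held the highest level of Gcat, Gldc, Shmt1, Shmt2 and Mthfd1. The median-ratio size factor was also highest in number 2 with either method, 1.27 after tagmentation and 1.14 after sonication. These factors rest on the 3645 tested genes (57.6%) at 1 RPKM or more in all 6 libraries. Deposited values of those genes thus tended to be higher in number 2. The share of all tested genes highest in number 2 was not computed. Primitive streak and mesoderm markers were also highest in number 2. The 3 of 4 in the table summed to 88.5 RPKM in tagmentation library 2 and 64.1 RPKM in sonication library 2, nearly all from T (Brachyury) with 83.2 and 61.3 RPKM. Their lowest sums, 0.339 and 0.253 RPKM, were those of number 1. Their part in the levels of the 5 genes was not tested.

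**Figure D4:**
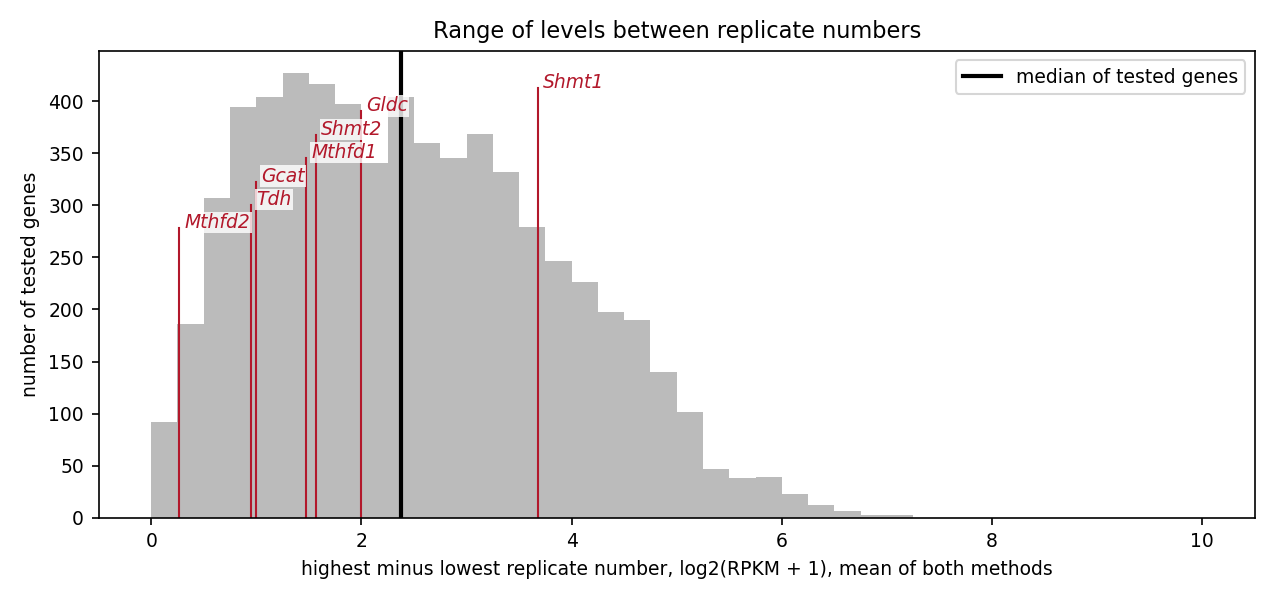
Number of tested genes (grey bars) by the range of log2(RPKM + 1) between the highest and the lowest replicate number, averaged over methods, with a black line at the median, 2.38, and red lines for the 7 genes. Mthfd2 lies at the low end (0.27), though its level rose with the number after tagmentation and not after sonication. Shmt1 is the only one of the 7 right of the median (3.68).

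Among themselves the genes fell into patterns over the 6 libraries. Pearson's r of log2(RPKM + 1) was 0.986 between Shmt1 and Shmt2 and 0.992 between Gldc and Mthfd1. Gcat had 0.826 with Gldc and 0.819 with Mthfd1. Tdh had 0.689 with Mthfd1, 0.646 with Gcat, 0.623 with Gldc and -0.369 with Shmt2, and Mthfd2 lay between -0.239 and 0.150 with each of the others. The 6 libraries form 3 pairs of the same number, so these values describe 3 levels rather than 6 independent points.

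Genes most like each of the 7 were sought among 3840 tested genes with a mean of at least 10 RPKM, the 7 and predicted genes left out, over the same 6 libraries. For Tdh these were Ptdss2 (r = 0.996), a phosphatidylserine synthase, and S100a6 (0.995), a calcium-binding protein. For Gcat they were Dmwd (0.995) and the tubulin gene Tubb2b (0.995), and for Gldc they were Tmem50a (0.998) and Zfp512 (0.998). Shmt1 was most like Exosc10 (0.999), an exosome nuclease, and Ngdn (0.999). Shmt2 was most like Ndufa9 (1.00), a subunit of respiratory complex I, and Ap1s1 (0.999). Mthfd1 was most like Tmem50a (0.994) and the small GTPase gene Arf1 (0.994), and Mthfd2 was most like Tm7sf3 (0.983) and Wdr70 (0.979). With so few distinct levels many genes came close: 389 genes had an r above 0.95 with Shmt2 and 347 with Shmt1, against 51 with Tdh and 13 with Mthfd2.

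Other one-carbon genes were listed by pathway, 45 in all, of which 34 were in the table and 23 were tested. The other 11 in the table were not tested, and of these only Mthfd2l and Srr are given with values. Listed genes absent from the table could not be analysed. None of the 23 was called between methods without the block and 1 was called with it (4.35%, beside 3.29% of all tested genes). The median log2 fold change of the 23 was 0.01, and 12 were above 0. Between replicate numbers 21 of 23 were called (91.3%, beside 88.1% of all tested genes), with a median range of 2.51. Of the 23, 15 were at 1 RPKM or more in all 6 libraries, a level that all of the 7 reached.

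The called gene was Gcsh, which encodes the H protein that accepts the aminomethyl group from Gldc. Gcsh had 49.8, 2.66 and 0.669 RPKM in tagmentation libraries 1 to 3, against 58.0, 6.19 and 5.40 RPKM in sonication libraries 1 to 3. It was lower after tagmentation in 3 of 3 numbers, with a log2 fold change of -1.04 (SE 0.29, adjusted p 0.0221 with the block and 1.00 without it). With the block it was not called with a pseudocount of 0.1 (-1.42, adjusted p 0.290), with median-ratio scaling (-1.11, adjusted p 0.226), without number 2 (-1.08, adjusted p 0.999) or without number 3 (-0.59, adjusted p 0.925). Without number 1 it was called (-1.46, adjusted p 0.0132). Dld, the L protein of the same system, had 77.3, 0.361 and 0.0386 RPKM after tagmentation, against 30.9, 1.72 and 0.331 RPKM after sonication. Gcsh and Dld thus stood above 30 RPKM in number 1 and under 7 RPKM in numbers 2 and 3, while Gldc was highest in number 2. Amt, also listed as a partner in glycine cleavage, was not in the table.

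In serine synthesis Psat1, the phosphoserine aminotransferase, had the highest mean. It had 188, 85.5 and 36.9 RPKM after tagmentation (numbers 1 to 3), against 199, 66.2 and 29.7 RPKM after sonication. Psat1 was highest in number 1 and lowest in number 3, with overlap between methods. Phgdh ran the other way, with 17.7, 66.6 and 77.9 RPKM after tagmentation, against 37.9, 82.3 and 102 RPKM after sonication. It was above Psat1 in tagmentation library 3 and in sonication libraries 2 and 3. All 3 genes of serine synthesis differed between numbers, beside 88.1% of all tested genes. In the folate cycle Tyms, thymidylate synthase, had the highest mean. Its levels were 33.1, 26.0 and 49.8 RPKM after tagmentation, against 34.1, 24.3 and 34.0 RPKM after sonication. Tyms was not called between numbers (adjusted p 0.172), nor was Gart (0.0703) among the genes of purine synthesis. In purine synthesis Paics had 405, 147 and 192 RPKM after tagmentation, against 323, 95.4 and 81.8 RPKM after sonication, the highest mean of all listed genes. Paics was higher after tagmentation in 3 of 3 numbers but was not called with the block (0.72, SE 0.30, adjusted p 0.182).

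In the methionine cycle and transsulfuration, Cth, cystathionine gamma-lyase, had 137, 65.2 and 96.7 RPKM after tagmentation, against 92.7, 41.4 and 44.4 RPKM after sonication. It was higher in 3 of 3 numbers and not called (0.77, SE 0.30, adjusted p 0.136 with the block). Mtrr, methionine synthase reductase, was the only one of the 23 genes whose methods did not overlap, with 8.64, 9.30 and 20.4 RPKM after tagmentation, against 5.61, 5.33 and 8.17 RPKM after sonication. It was not called either (0.82, SE 0.29, adjusted p 0.0871 with the block), and 1 of 23 is beside 2.40% of all tested genes without overlap. In folate uptake and retention Fpgs, which adds glutamates to folate, had the highest mean. Its levels were 22.7, 36.8 and 1.97 RPKM after tagmentation, against 43.3, 37.7 and 2.13 RPKM after sonication. Fpgs stood lowest in number 3 with both methods. Of other threonine and serine breakdown only Srr, serine racemase, was in the table, at 0.0965 to 1.39 RPKM, and it was not tested.

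**Figure D5:**
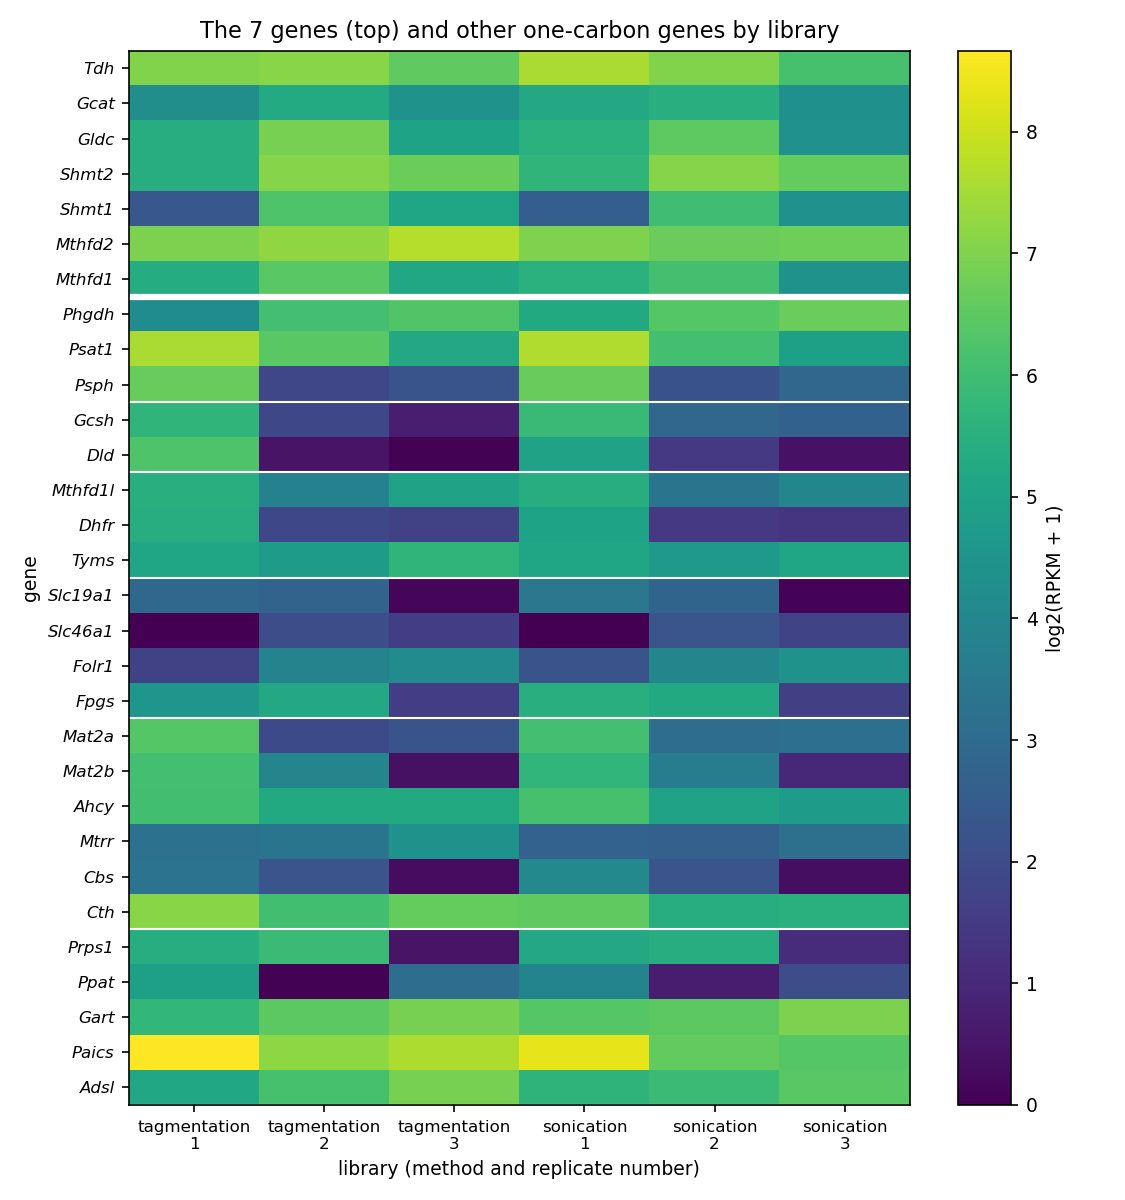
Colour map of log2(RPKM + 1) in the 6 libraries for the 7 genes (above the thick line) and the 23 tested other one-carbon genes, grouped by pathway with thin lines. The 7 genes keep a visible level in all libraries, whereas genes such as Dld, at 77.3 RPKM in tagmentation library 1 and 0.0386 RPKM in tagmentation library 3, are dark in some numbers with both methods.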

How the data were processed

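The deposited RPKM values were made by the authors, per the file headers, where each library has its own column and its number of alignments. Per the submitters' processing notes the build was mm9, and CASAVA 1.7.0 and Partek are named without a role. Aligner, annotation and handling of multiple matches: not given in the sources used here. Per the labels' protocols, tagmentation used 100 ng of cDNA at 55 °C for 5 min and 13 PCR cycles.

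Values were tested as log2(RPKM + 1) with limma 3.58.1 in R 4.3.3 (lmFit, eBayes with a trend), two-sided, Benjamini-Hochberg adjusted over all 6327 tested genes, threshold 0.05. A fold change on this scale understates the change of low genes. The script was tested on simulated data. Same-number libraries deviated together from the means of their methods (r = 0.952, 0.969 and 0.934). Other pairs had an r of -0.175 or less. Deviations from a mean of 3 libraries sum to 0, so a high r of same-number pairs pushes the others below 0. The negative values are therefore no added evidence for the pairing. The pairing comes from these data, not the labels. Over 6 genes, reads of same-number libraries differed by a chi-square per degree of freedom of 43.1 to 109. Their counts were thus not copies of each other. As the methods differed and PCR copies were counted, these values cannot tell whether same-number libraries shared a cDNA.

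Gene model lengths were the shortest, up to 5000 bases, that gave whole reads in all 6 libraries within 0.002 reads plus 1e-05 of the reads. All 7 genes were named. The 2 most alike genes by Pearson's r, the highest gene of each pathway and every called one were also named. Dld, Gart, Mtrr, Mthfd1l, Mthfd2l and Phgdh were named after their values were seen. The genes and lists were chosen with earlier results of these data known. Alternatives were a replicate block, pseudocounts of 0.1 and 5, other filters, 2 other scalings and leaving out libraries.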

Additional observations from a re-analysis of the deposited data

How the results depend on the processing

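Between methods, the count of called genes was 0 without a block in every alternative, and 0 with each library left out. It was 208 with the replicate block, 8 with the block and a pseudocount of 0.1, 554 with the block and median-ratio scaling, and, with the block, 1051, 10 and 19 without number 1, 2 and 3. Of the 7 genes 0 were called with the block, and 0 to 1 with the block and 1 number left out. Between replicate numbers, 3411 genes were called when genes needed a mean of 10 RPKM, which tests fewer genes, against 5577. With each library left out in turn, 4342 to 5867 genes and 1 to 6 of the 7 genes were called. The cause of the other changes was not tested. The direction of uncalled fold changes turned with single libraries left out: they ran from -0.39 to 0.32 for Tdh, -0.44 to 0.46 for Shmt2, -0.63 to 1.35 for Shmt1, -0.26 to 0.82 for Gldc and -0.18 to 0.65 for Mthfd1. Those fits split a same-number pair. With the block and 1 number left out, values turned for Tdh (-0.22 to 0.26) and Shmt2 (-0.13 to 0.063) but not for Gldc (0.12 to 0.50), Shmt1 (0.013 to 0.48) or Mthfd1 (0.074 to 0.51). Those of Gcat and Mthfd2 kept their direction in all alternatives run, as did the 3 ratios, with 1.77 to 2.22 for Shmt2 over Shmt1, 1.34 to 1.74 for Mthfd2 over Mthfd1 and 1.93 to 2.17 for Tdh over Gcat without each library. The 6 genes with recovered reads had 177 reads or more in each library, and the effect of depth was not tested.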
